A study of Mus musculus with 48 samples.

Results

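Complex I of the respiratory chain is encoded by nuclear genes whose symbols mostly begin with Nduf. All 46 protein-coding genes with such a symbol in the GENCODE M21 annotation of the mouse genome GRCm38 were taken, and all 46 were among the 22055 genes listed. They comprise 36 subunits of the complex (7 core and 29 accessory), 8 assembly factors (Ndufaf1 to Ndufaf8) and a pair of paralogs, Ndufa4 and Ndufa4l2. Of the subunits, 16 belong to the matrix arm, 19 to the membrane arm and 1, Ndufab1, to both. Their levels were measured in ectodermal (brain and retina), mesodermal (heart and kidney) and endodermal (liver and lung) tissues. All mice were wild type, of the strain C57BL/6, without treatment or transgene, and were taken either as embryos at day 15.5 (E15.5) or after birth at day 42 (P42). RNA-seq of polyadenylated RNA gave message levels, and Ribo-seq, which sequences the fragments that ribosomes protect from nuclease, gave footprint levels. Each of the 24 groups of tissue, stage and assay held 2 biological replicates, 48 libraries in all. The values are in TPM, the share of transcripts in a library on a fixed scale, which allows for transcript length. They are exon-level values in both assays, while footprints lie mainly on the coding part of a message. Footprint levels and ratios of different genes are therefore not strictly comparable.

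Complex I (NADH:ubiquinone oxidoreductase) passes electrons from NADH to ubiquinone and pumps protons across the inner mitochondrial membrane. Its core subunits carry the flavin, the iron-sulfur clusters and the proton channels, the last of these being encoded by mitochondrial DNA, while the accessory subunits surround the core and stabilise it. Assembly factors bind intermediates while the complex is put together and are absent from the finished enzyme. Tissues with a steady demand for ATP, such as heart muscle and kidney tubule, are known for dense mitochondria.

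Ndufa4 was first assigned to complex I and is now counted with cytochrome c oxidase, and Ndufa4l2 is its hypoxia-inducible paralog. Their coding sequences are shown because footprints of the 2 genes moved in opposite directions in retina and kidney. Capitals mark the 168 of 245 aligned bases that are identical (68.57%), and the longest shared run is 28 bases. Both are from GENCODE M21 transcripts and are written 5′ to 3′. In GRCm38.p6 the 249 bases of Ndufa4 lie on the minus strand within chr6:11900535-11907365, and the 264 bases of Ndufa4l2 on the plus strand within chr10:127514982-127516499.
Ndufa4: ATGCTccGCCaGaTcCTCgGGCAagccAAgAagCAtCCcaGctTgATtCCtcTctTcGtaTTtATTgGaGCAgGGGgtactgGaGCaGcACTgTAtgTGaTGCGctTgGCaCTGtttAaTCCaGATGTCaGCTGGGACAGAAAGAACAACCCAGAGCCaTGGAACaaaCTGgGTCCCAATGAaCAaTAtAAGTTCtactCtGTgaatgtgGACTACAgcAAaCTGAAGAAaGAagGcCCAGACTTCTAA
Ndufa4l2: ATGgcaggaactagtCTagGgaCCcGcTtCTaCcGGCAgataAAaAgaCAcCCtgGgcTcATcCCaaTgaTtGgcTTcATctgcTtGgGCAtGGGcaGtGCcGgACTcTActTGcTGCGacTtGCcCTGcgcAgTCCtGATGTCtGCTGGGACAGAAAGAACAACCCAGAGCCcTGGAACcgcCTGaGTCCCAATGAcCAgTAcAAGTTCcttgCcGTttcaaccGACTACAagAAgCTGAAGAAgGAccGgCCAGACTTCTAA

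Promoters of 40 of the 46 genes were found in the RefSeq table and searched on both strands for letters that the factors NRF1, YY1, ETS and ERR are known to bind. The NRF1 palindrome, GCGCA followed by its reverse complement, was present in 2 of the 40 windows (5%), against 0.781% of the 27025 promoters of all genes. The ETS letters CCGGAAG were present in 5 (12.5%; Ndufaf1, Ndufaf8, Ndufb6, Ndufb7 and Ndufs3), against 7.05%. The YY1 letters AAGATGGCG and the ERR letters TCAAGGTCA were in none of the 40 windows, against 0.607% and 0.366% of all promoters. The 250 bases before the start of the 2 genes with the palindrome are printed here (RefSeq, GRCm38.p6, 5′ to 3′, palindrome in capitals). Ndufa11 encodes a membrane arm subunit and its window is chr17:56717512-56717761 on the plus strand. Ndufaf4 encodes an assembly factor and its window is chr4:24897833-24898082 on the plus strand. A match to letters is a description of the window only.
Ndufa11: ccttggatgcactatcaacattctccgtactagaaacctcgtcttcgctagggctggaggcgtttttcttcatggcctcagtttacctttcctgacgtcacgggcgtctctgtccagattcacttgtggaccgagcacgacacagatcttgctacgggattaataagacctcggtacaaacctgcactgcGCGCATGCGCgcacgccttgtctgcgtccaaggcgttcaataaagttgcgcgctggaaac
Ndufaf4: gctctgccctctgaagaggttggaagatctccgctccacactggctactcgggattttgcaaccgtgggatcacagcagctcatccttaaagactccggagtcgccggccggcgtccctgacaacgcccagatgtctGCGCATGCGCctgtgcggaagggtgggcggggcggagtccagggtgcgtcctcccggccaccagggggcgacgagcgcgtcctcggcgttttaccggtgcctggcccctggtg

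Every member had a value above 0 in every library, the lowest level being 3.38 TPM for a message and 1.83 TPM for a footprint, so none was lost to a filter on low values in the tests by mRNA or by footprint. The genes of the tables summed to 48.9% to 93.4% of the full TPM scale in the RNA-seq libraries and 23.1% to 61.1% in the Ribo-seq libraries. Mitochondrially encoded genes held 0.341% to 55.5% of that scale by RNA-seq. Replicates of a group correlated at 0.987 to 0.999 for messages and 0.976 to 0.999 for footprints over genes on the log scale. At least 4 of 5 markers of the labelled tissue reached 1 TPM in every library. The summed lung markers reached 2901 TPM in a footprint library of another tissue, against 3425 TPM in the lowest lung library. By RNA-seq they reached 38.5 TPM outside lung. The summed brain markers reached 3136 TPM by RNA-seq outside brain, against 2670 TPM in the lowest brain library. The source of these values was not tested. The RNA-seq library of E15.5 kidney replicate 2 stood apart, with the lowest listed sum, 48.9%. The main kidney counts between the stages, and the members given with a test there, are also shown without it where they use it. TPM keeps no read total, so the depth behind each value is unknown. In a whole tissue, fewer cells of a type and less RNA per cell cannot be told apart. The P42 and E15.5 samples were deposited as separate sets, and no set holds both stages. Any difference between the sets other than stage cannot be told apart from stage.

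The 36 subunit genes together held the largest share of nuclear TPM in heart at both stages and by both assays. By RNA-seq their share in heart was 1.39% and 1.33% in the E15.5 libraries and 3.68% and 3.89% in the P42 libraries. Kidney went from 0.621% and 0.620% to 1.67% and 1.45%, brain from 0.558% and 0.548% to 1.02% and 1.05%, and liver from 0.367% and 0.386% to 0.680% and 0.741%. In these 4 tissues both P42 libraries lay above both E15.5 libraries. Retina moved from 0.555% and 0.480% to 0.578% and 0.753%, with higher values at P42 in both libraries but a gap smaller than the P42 spread. Lung was the tissue in which the share was lower at P42, at 0.559% and 0.525% against 0.345% and 0.277%.

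Footprints gave the same order of heart over kidney at P42. The subunit share of nuclear footprint TPM was 2.33% and 2.21% at E15.5 and 3.73% and 3.38% at P42 in heart, and 0.996% and 1.02% against 1.74% and 1.61% in kidney. In retina it went from 0.775% and 0.745% to 1.11% and 1.14%, while liver held 0.537% and 0.548% at E15.5 and 0.605% and 0.613% at P42. In lung the share went from 0.881% and 0.886% to 0.407% and 0.350%. The secretory gene Scgb1a1, a club cell marker, alone took 29.6% and 41.8% of nuclear mRNA TPM and 26.8% and 32.9% of nuclear footprint TPM in the P42 lung libraries. With the 10 highest nuclear genes of each library left out, the subunit share in lung was 0.587% and 0.552% at E15.5 and 0.565% and 0.553% at P42 by RNA-seq, where the stages overlapped. By Ribo-seq it was still lower at P42, at 0.664% and 0.644% against 0.965% and 0.970%.

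**Figure D1:**
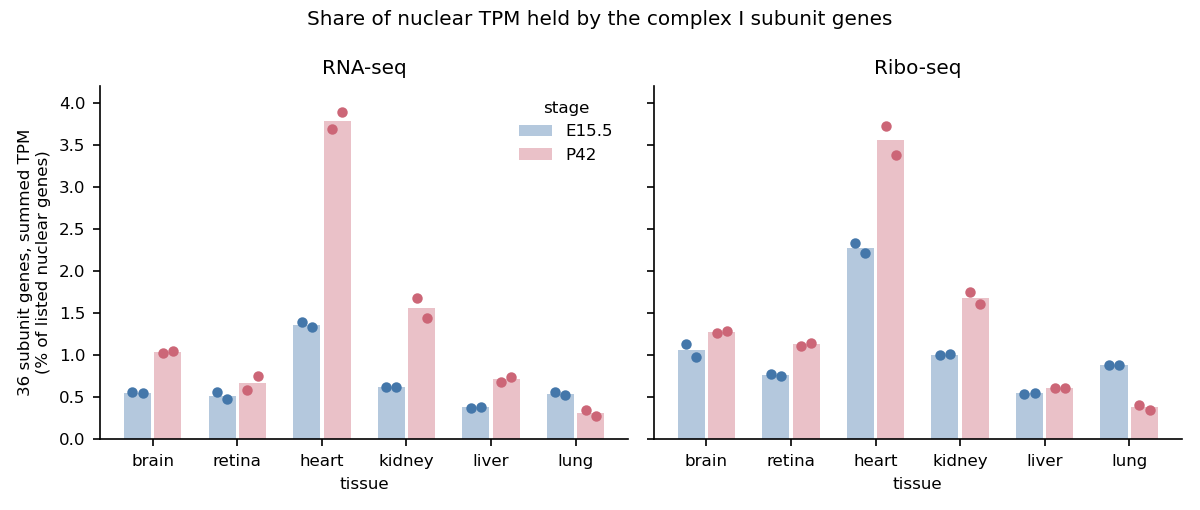
Bars show the mean summed TPM of the 36 subunit genes as a percentage of listed nuclear TPM, points the 2 libraries of each group, for RNA-seq (left) and Ribo-seq (right) in 6 tissues at E15.5 and P42. Heart stands above the other tissues, reaching 3.89% by RNA-seq at P42, and lung is the tissue where the P42 bars lie below the E15.5 bars.

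The first comparison set P42 against E15.5 within each tissue by mRNA. As deposited, 33 of 36 subunits were called higher at P42 in kidney, 18 in liver, 6 in brain, 4 in heart and 1 in retina, and 18 were called lower in lung. The lung subunits had a median of -1.01 as deposited and of 0.10 relative to the median gene, by which 4 were higher and 0 lower. The median assembly factor rose less than the median subunit in brain, kidney and liver. In retina it rose more, by 0.29 against 0.14 as deposited, and in lung it was lower, at -1.49 against -1.01. In heart it was -0.87 against 0.40 for the subunits as deposited, and 0.74 against 2.01 relative to the median gene. Calls are from limma with Benjamini-Hochberg adjustment over all genes tested, and required both an adjusted p under 0.05 and a change of 1 or more on the log2(TPM + 1) scale, which understates changes of low genes. The median gene itself moved between the stages, by -1.61 in heart, -1.11 in lung, -0.89 in liver, -0.81 in kidney, -0.60 in brain and -0.23 in retina. Most counts are therefore followed by the count relative to the median gene.

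Kidney had the most called members. There 36 of 46 genes (78.3%) rose by mRNA, against 13.1% of all genes tested, and 44 rose relative to the median gene, against 24.2%. The 36 include 33 of 36 subunits, with all 19 of the membrane arm among them, and the subunit median was 1.45. Without the E15.5 replicate 2 library the count was 23. The 4 adrenal marker genes Cyp11a1, Cyp11b1, Star and Hsd3b1 summed to 697 and 402 TPM by RNA-seq of kidney at E15.5 and to 1.63 and 1.97 TPM at P42, with all 4 at 1 TPM or more at E15.5 and 1 of 4 at P42, and the part of adrenal tissue in these changes was not tested.

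Liver followed with 23 of 46 genes (50.0%) higher, against 13.4% of all genes, and 38 relative to the median gene, against 26.1%. The subunit median there was 1.02. Of the membrane arm 13 of 19 subunits rose, and of the 7 core subunits 1, Ndufs3. The 4 globin genes Hbb-bs, Hbb-bt, Hba-a1 and Hba-a2, which mark red cells, summed to 102988 and 118688 TPM in the E15.5 liver RNA-seq libraries, and to 774 and 518 TPM at P42, with all 4 at 1 TPM or more at both stages, and their part in these changes was not tested. The same 4 genes went from 6012 and 4945 to 1965 and 693 TPM in heart, from 5988 and 3450.0 to 853 and 482 TPM in kidney and from 4322 and 4005 to 6530.2 and 7007 TPM in lung by RNA-seq.

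Brain had 7 of 46 (15.2%) higher, Ndufa4, Ndufa5, Ndufa13, Ndufb3, Ndufb9, Ndufs5 and Ndufs7, against 11.7% of all genes tested, close to the background. The brain count was 32 relative to the median gene, against 21.2%. Heart had 4 of 46 (8.70%) higher, Ndufa1, Ndufa5, Ndufb10 and Ndufs6, against 2.73%, and 2 lower, Ndufaf4 and Ndufaf7, against 74.6%. In heart 39 members rose relative to the median gene, against 16.0%, and 0 fell, against 11.9%. With mitochondrially encoded genes left out, 36 rose and 0 fell in heart, where the median gene moved by -0.75. The 1 member that fell in kidney was Ndufa4l2, against 43.9% of all genes. The subunit median in heart was 0.40 as deposited and 2.01 relative to the median gene. Retina had 3 of 46 (6.52%) higher, against 18.6%, and 1 lower, against 24.7%. Relative to the median gene 5 rose and 1 fell in retina, where the shares of all genes on that scale are not given here. In lung 26 of 46 (56.5%) fell, against 53.5% of all genes, near the background, and relative to the median gene 0 fell, against 17.0%, while 5 rose, against 23.2%. In brain the mRNA change had an SD of 0.44 over the 46 genes and of 1.39 over all genes tested.

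**Figure D2:**
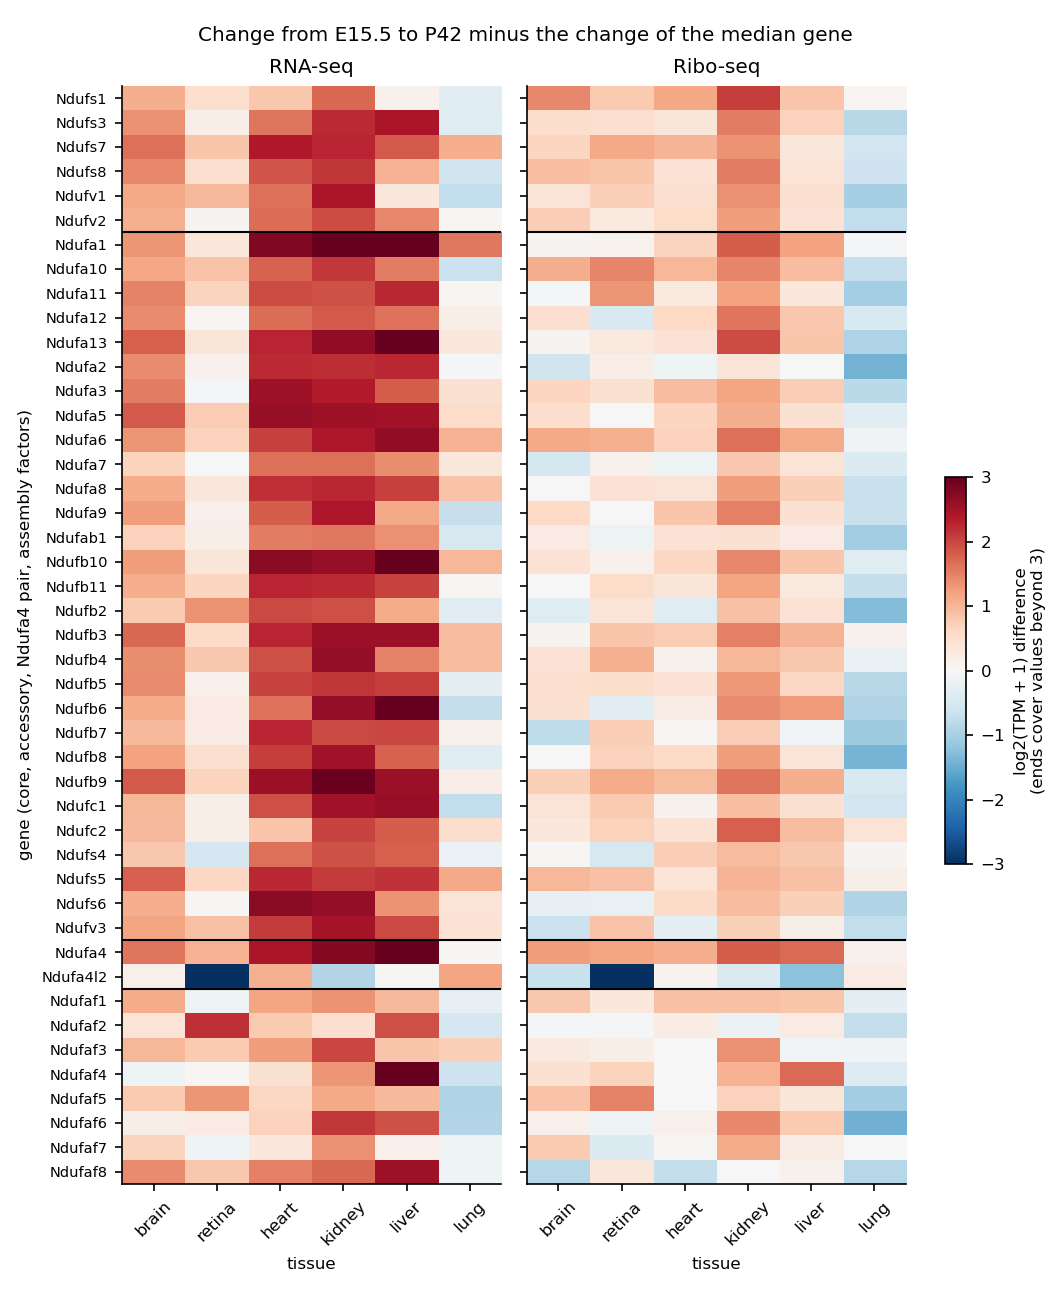
Colours give the change from E15.5 to P42 minus the change of the median gene, in log2(TPM + 1), for 45 of the 46 genes (rows: core subunits, accessory subunits, the Ndufa4 pair, assembly factors) in 6 tissues by RNA-seq (left) and Ribo-seq (right). The RNA-seq columns of heart, kidney and liver are mostly red, with 39, 44 and 38 of all 46 genes called higher, and the retina cell of Ndufa4l2 is the deepest blue.

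The 7 core subunits carry the redox centres of the matrix arm. Ndufs1 is the largest iron-sulfur subunit. Its mRNA in heart was 103 and 103 TPM at E15.5 and 66.0 and 52.3 TPM at P42, a difference of -0.80 (SE 0.21, limma adjusted p = 0.00135) as deposited, below the size required for a call, and of 0.81 relative to the median gene. In liver it was 44.9 and 34.5 TPM against 23.5 and 22.0 TPM, -0.76 (SE 0.21, limma adjusted p = 0.00239) as deposited and 0.12 relative to the median gene. The deposited levels of the stages did not overlap in either tissue, and the sign in both depends on the scaling. Its footprints in brain rose from 28.1 and 31.5 to 86.5 and 78.0 TPM, by 1.44 (SE 0.24, limma adjusted p = 4.65e-05), and in kidney from 45.4 and 46.5 to 141 and 97.0 TPM, by 1.33 (SE 0.24, limma adjusted p = 7.2e-05).

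Ndufv1, which binds NADH and flavin, had group means of 70.5 TPM at E15.5 against 216 TPM at P42 in kidney, and of 119 and 79.4 TPM in liver. Its change was 1.65 in kidney, the largest among the core subunits there, and -0.57 in liver as deposited, which was not called and was 0.31 relative to the median gene. Ndufs3 rose in liver by 1.56, from a mean of 34.0 to 102 TPM, and Ndufs7, a subunit near the ubiquinone site, rose in brain by 1.06, from 66.6 to 140 TPM. Ndufs8 and Ndufv2, both iron-sulfur subunits, had heart means of 248 and 388 TPM at E15.5 and 302 and 407 TPM at P42. By mRNA as deposited, 6 of the 7 core subunits were called higher in kidney, against 13.1% of all genes, and 6 lower in lung, against 53.5%. Relative to the median gene 0 members were lower in lung. In heart and retina 0 core subunits were called in either direction as deposited.

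Among the accessory subunits, Ndufb9, a membrane arm subunit of the LYR family, had the largest rise in brain. Its mRNA there was 252 and 265 TPM at E15.5 and 590.0 and 633 TPM at P42, a rise of 1.24 (SE 0.22, limma adjusted p = 2.88e-05). Ndufa5, of the matrix arm, was 135 and 130.1 TPM against 310.0 and 316 TPM in brain, a rise of 1.23 (SE 0.23, limma adjusted p = 4.81e-05). For both genes all P42 libraries lay above all E15.5 libraries.

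Ndufa1, a small membrane arm subunit encoded on the X chromosome, led in heart and in kidney. In heart its mRNA rose from 413 and 347 to 873 and 825 TPM, by 1.16 (SE 0.23, limma adjusted p = 5.93e-05). In kidney it rose from 185 and 111 to 853 and 668 TPM, by 2.39 (SE 0.23, limma adjusted p = 3.25e-09), and by 2.02 without the E15.5 replicate 2 library. Ndufb9 in kidney went from 232 and 140.3 to 897 and 733 TPM, a rise of 2.16 (SE 0.22, limma adjusted p = 8.07e-09), and 1.8 without that library. Neither gene's stages overlapped.

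Ndufb10, a membrane arm subunit, rose in heart and in liver. In heart it was 369 and 361 TPM at E15.5 and 814 and 749 TPM at P42, a rise of 1.09 (SE 0.21, limma adjusted p = 3.28e-05). In liver it was 50.4 and 57.2 TPM against 264 and 329 TPM, a rise of 2.43 (SE 0.21, limma adjusted p = 3.03e-10). The stages did not overlap in either tissue. Ndufb2, another membrane arm subunit, was the 1 subunit called higher in retina, with 15.2 and 14.6 TPM against 31.3 and 36.3 TPM, a rise of 1.12 (SE 0.20, limma adjusted p = 3.27e-05). Exons of Ndufb2 overlap those of Braf on the other strand by 146 bases, and whether the authors counted by strand is not given in the sources used here, so reads of the 2 genes cannot be told apart there. The same holds for Ndufa13 with Tssk6, Ndufb5 with Mrpl47 and Ndufb6 with Smim27, among others. On the same strand, exons of Ndufb2, Ndufb8 and Ndufb9 overlap those of Gm42420, Gm20538 and Gm49356 by 145, 134 and 193 bases. Strand alone would not separate those reads. Ndufa12, Ndufab1, Ndufb3, Ndufb4, Ndufb11, Ndufs3, Ndufs5 and Ndufs6 have near-identical processed copies elsewhere in the genome, and their levels are uncertain to that extent.

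Assembly factors followed the median subunit less closely than single subunits did, each of which contributes to that median, and the difference was not tested. Over the 12 groups of tissue and stage, a subunit's mRNA mean correlated with the median subunit at a median r of 0.907 (0.734 to 0.980 over 36 genes), and an assembly factor's at 0.611 (0.189 to 0.902 over 8 genes). By footprint the medians were 0.908 and 0.518. These are descriptions over 12 groups that share libraries and scaling. Ndufv2, Ndufb8 and Ndufb5 were the most like the median subunit by mRNA, each at 0.978 or above, and Ndufaf2 and Ndufaf7 the least like it among the 44 subunits and factors, at 0.189 and 0.223. The median change of the 8 factors in heart was -0.87 by mRNA, with all 8 below 0 and 2 called, against 0.40 for the subunits. Relative to the median gene the same 8 had a median of 0.74, with 3 called higher.

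Ndufaf2, a factor related to the subunit Ndufa12 that acts late in assembly, had the largest rise of any member in retina. Its mRNA in retina was 27.0 and 27.3 TPM at E15.5 and 112 and 105 TPM at P42, a rise of 1.96 (SE 0.18, limma adjusted p = 1.66e-09). Its footprints there were 16.6 and 7.64 TPM against 13.2 and 10.1 TPM, where the stages overlapped. In the other tissues its mRNA lay between 4.04 and 25.5 TPM in all libraries. The gene (chr13:108002715-108158623, minus strand) shares a 1955-base stretch of exon with the lincRNA gene B230220B15Rik on the opposite strand, which is not used here, so without knowing the strand of counting the reads of the 2 genes cannot be told apart.

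Ndufaf4, a factor of early assembly whose promoter is shown above, rose in liver from 6.65 and 4.52 to 27.6 and 26.3 TPM, by 2.10 (SE 0.23, limma adjusted p = 1.61e-08). In heart it went from 44.5 and 46.8 to 22.6 and 17.8 TPM, a fall of 1.15 on the log2 scale (SE 0.23, limma adjusted p = 6.01e-05) as deposited and a difference of 0.46 relative to the median gene. Without P42 heart replicate 2 the heart value was -0.98 and no longer called. Neither tissue's stages overlapped. Ndufaf7, a methyltransferase of the mitochondrial matrix, had 30.8 and 30.5 TPM at E15.5 and 13.0 and 10.9 TPM at P42 in heart, a difference of -1.29 (SE 0.22, limma adjusted p = 9.56e-06) as deposited and 0.32 relative to the median gene.

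Ndufaf5 and Ndufaf6 had the largest falls in lung as deposited. Ndufaf5, a hydroxylase of Ndufs7, was 21.3 and 18.7 TPM at E15.5 and 4.62 and 3.81 TPM at P42, a difference of -2.01 (SE 0.26, limma adjusted p = 2.39e-07). Ndufaf6 was 18.5 and 16.7 TPM against 3.95 and 3.38 TPM, a difference of -2.00 (SE 0.20, limma adjusted p = 7.04e-09). The stages did not overlap for either gene, but neither was called relative to the median gene. By footprint Ndufaf6 in lung was 14.6 and 16.0 TPM against 6.30 and 2.69 TPM, a difference of -1.65 (SE 0.27, limma adjusted p = 4.65e-05).

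Factors called in retina and kidney were higher at P42. Ndufaf5 in retina rose from 24.6 and 23.0 to 44.9 and 59.8 TPM by mRNA, by 1.09 (SE 0.26, limma adjusted p = 0.000681), and was 0.89 and not called without P42 replicate 2. Its footprints in retina rose from 8.25 and 5.19 to 20.1 and 22.8 TPM, by 1.57 (SE 0.25, limma adjusted p = 3.06e-05). Both assays placed the P42 retina libraries above the E15.5 ones. Ndufaf6 in kidney rose from 21.4 and 11.5 to 43.6 and 37.4 TPM, by 1.31 (SE 0.20, limma adjusted p = 3.94e-06), and Ndufaf3, which works with Ndufaf4, from 18.1 and 11.2 to 37.3 and 30.7 TPM, by 1.19 (SE 0.21, limma adjusted p = 2.64e-05). Without the E15.5 kidney replicate 2 library the values were 0.89 and 0.87 and neither was called.

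The other factors changed by message mainly in liver and lung. Ndufaf8, a partner of Ndufaf5, rose in liver from 8.33 and 11.7 to 28.4 and 38.8 TPM, by 1.65 (SE 0.29, limma adjusted p = 2.31e-05), with no overlap of the stages. Also called higher in liver were Ndufaf2, by 1.06 (SE 0.18, limma adjusted p = 1.2e-05), and Ndufaf6, by 1.03 (SE 0.20, limma adjusted p = 7.74e-05). The exon overlap of Ndufaf2 given above applies there too. Ndufaf1, an early membrane arm factor, was 29.2 and 26.1 TPM against 10.5 and 10.0 TPM in lung, -1.34 (SE 0.22, limma adjusted p = 7.03e-06). In lung 7 of the 8 factors were called lower, all but Ndufaf3, against 53.5% of all genes, and relative to the median gene 0 of 8 were. Ndufaf2, Ndufaf4, Ndufaf7 and Ndufaf8 went in lung from 25.5 and 23.5 to 7.75 and 6.58 TPM, from 24.1 and 21.6 to 6.20 and 6.14 TPM, from 32.6 and 31.0 to 14.5 and 11.1 TPM and from 31.6 and 25.3 to 13.8 and 9.53 TPM, none with overlapping stages. Ndufaf8 was not called in lung without P42 replicate 2, and its difference was 0.013 with median-of-ratios scaling. Over all 24 RNA-seq libraries the medians of the 8 factors ran from 16.5 TPM for Ndufaf6 to 31.5 TPM for Ndufaf8.

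Ndufa4 and its paralog stood outside both classes. Ndufa4 had the highest mean mRNA level of the 46 over the 12 groups, with 86.4 TPM at the lowest in E15.5 liver, a median of 387 TPM and 1190.2 TPM at the highest in P42 kidney. In liver it rose from 121 and 86.4 to 613 and 686 TPM, by 2.65 (SE 0.23, limma adjusted p = 6.16e-10), the largest rise of any member there, and in kidney from 369 and 210.2 to 1190.2 and 983 TPM, by 1.95 (SE 0.23, limma adjusted p = 9.85e-08), and by 1.55 without the E15.5 replicate 2 library. In both tissues the P42 libraries lay above the E15.5 ones. In brain it was 329.6 and 326 TPM against 629 and 692 TPM, a rise of 1.01 that fell just below the required size without E15.5 or P42 replicate 2. Its pattern over the 12 groups was like the median subunit's, with r of 0.950 by mRNA and 0.827 by footprint.

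Ndufa4l2 had the largest change of any member. Its retina mRNA was 356 and 202 TPM at E15.5 and 5.10 and 5.37 TPM at P42, a fall of 5.43 on the log2 scale (SE 0.24, limma adjusted p = 4.09e-15). Footprints in retina went from 38.9 and 29.6 to 2.39 and 2.36 TPM, a fall of 3.37 (SE 0.29, limma adjusted p = 1.11e-08). No library of one stage overlapped the other. The gene also fell in kidney, from 54.2 and 38.3 to 13.7 and 13.2 TPM by mRNA, by -1.69 (SE 0.24, limma adjusted p = 1.13e-06), and by -1.93 without the E15.5 replicate 2 library, though it was not called there relative to the median gene. In liver its footprints fell from 12.6 and 13.0 to 2.24 and 2.23 TPM, by -2.09 (SE 0.29, limma adjusted p = 3.51e-06). P42 lung was the highest tissue at that stage, with 111 and 85.3 TPM, and the level there at E15.5 was 94.2 and 91.2 TPM. Its correlation with the median subunit was -0.18 by mRNA and -0.04 by footprint.

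**Figure D3:**
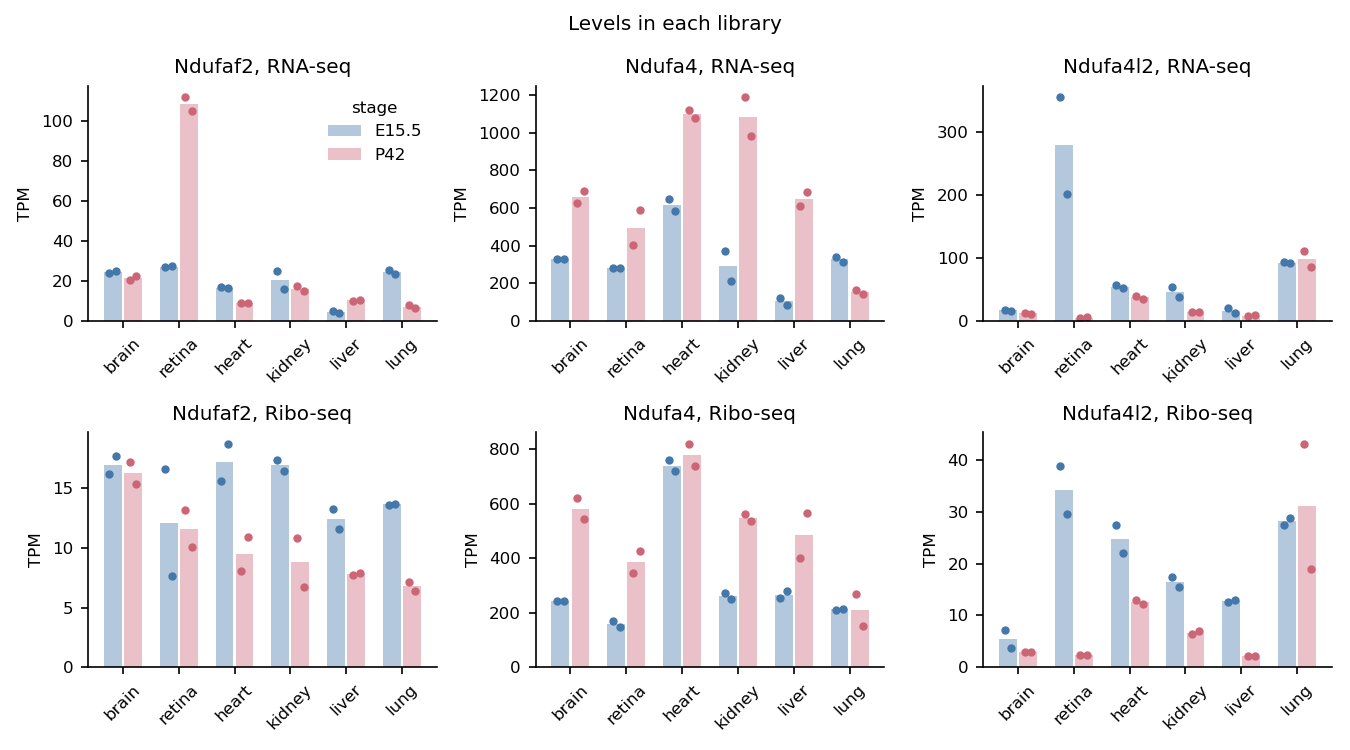
Bars show mean TPM and points the 2 libraries of each group for Ndufaf2, Ndufa4 and Ndufa4l2 by RNA-seq (top) and Ribo-seq (bottom) in 6 tissues at E15.5 and P42, each panel on its own axis. Ndufaf2 mRNA stands out in P42 retina at 112 and 105 TPM without a matching footprint bar, Ndufa4 is highest in P42 heart and kidney by mRNA, and Ndufa4l2 is highest in E15.5 retina by mRNA.

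By footprint, fewer members were called between the stages in brain, kidney, liver and lung. The median gene moved by -1.01 in heart, -0.85 in liver, -0.74 in kidney, -0.21 in lung, 0.08 in retina and -0.01 in brain. Retina had 9 of 46 (19.6%) higher, among them Ndufa4, Ndufa6, Ndufaf5, Ndufb4, Ndufb9 and Ndufs7, against 21.3% of all genes tested, and 1 lower, Ndufa4l2, against 16.2%. Kidney had 5 of 46 (10.9%) higher, Ndufa1, Ndufa4, Ndufa13, Ndufc2 and Ndufs1, against 12.2%, and 1 lower, Ndufa4l2, against 40.2%. Brain had 4 (8.70%) higher, Ndufa4, Ndufa6, Ndufa10 and Ndufs1, against 20.2%. Heart had 7 of 46 (15.2%) lower, Ndufa2, Ndufa7, Ndufaf4, Ndufaf5, Ndufaf8, Ndufb2 and Ndufv3, against 50.6%, though with median-of-ratios scaling the differences of Ndufaf4 and Ndufaf5 were 0.20 and 0.25. Liver had 0 higher and 1 lower, Ndufa4l2, against 44.0%. None of these shares as deposited lay above the background of its direction. Lung had 16 (34.8%) lower, against 22.8%. Relative to the median gene, kidney had 31 higher (67.4%, against 22.0%), liver 7 higher (15.2%, against 20.6%), heart 3 higher and 0 lower (against 18.2% and 11.5%), and lung 9 lower (19.6%, against 17.7%). With median-of-ratios scaling 23 were higher in liver and 10 in heart, and 4 were lower in lung. The median gene then moved by 0.11 in liver, 0.05 in heart and 0.13 in lung. With nuclear genes rescaled to an equal sum 32 were lower in lung, where the median gene moved by -0.61. Shares of all genes called are not given for these scalings. Single libraries moved several of these counts. Without P42 kidney replicate 2 the kidney count was 13, and without replicate 1 it was 3. Without E15.5 heart replicate 2 the heart count was 14, and without replicate 1 it was 4. The brain count was 8 without E15.5 replicate 1 and 2 without replicate 2, the retina count 15 without E15.5 replicate 1, and the lung count 9 without P42 replicate 2.

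Translational efficiency, the footprint level relative to the message level, was tested as the difference between the 2 assays' stage changes in 1 model over both. Of the 36 subunits 22 were called lower at P42 in liver, 17 in heart and 12 in kidney as deposited. The median change of the 8 assembly factors was 0.04 in heart and -0.49 in kidney, and that of the 7 tested in liver was -0.87. In liver 27 of 45 tested members (60.0%) fell, against 19.6% of all genes, and 21 fell relative to the median gene, against 12.1%. In heart 18 of 46 (39.1%) fell, against 4.94%, and 23 relative to the median gene, against 7.99%. With mitochondrially encoded genes left out, 37 fell in heart, where the median gene moved by -0.53. In kidney 12 of 46 (26.1%) fell, against 4.37%, and 8 relative to the median gene, against 3.37%. The fallen genes in kidney were all accessory subunits, Ndufa1, Ndufa2, Ndufa5, Ndufb2, Ndufb4, Ndufb6, Ndufb8, Ndufb9, Ndufb10, Ndufc1, Ndufs6 and Ndufv3. In heart 17 of the 18 were accessory subunits and the other Ndufaf8, and 0 of the 7 core subunits were called in heart or kidney. In liver the core subunits Ndufs3 and Ndufs7 were called lower. The difference between core and accessory subunits was not tested.

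In brain 6 of 46 (13.0%) fell, Ndufa2, Ndufa13, Ndufaf8, Ndufb3, Ndufb7 and Ndufv3, against 2.28%, and 1 rose, Ndufaf4, against 27.7%. Relative to the median gene 16 fell and 0 rose in brain, where the shares of all genes on that scale are not given here. In lung 5 of 44 (11.4%) rose, Ndufaf4, Ndufaf7, Ndufc1, Ndufs1 and Ndufs4, against 39.4%, and relative to the median gene 12 fell, against 8.26%. Retina had 1 member higher, Ndufa4l2, against 11.8%, and 1 lower, Ndufaf2, against 1.87%. The median efficiency change of the 36 subunits was -1.32 in liver, -1.01 in heart, -1.0 in kidney, -0.32 in brain, 0.11 in lung and 0.51 in retina. That of all genes tested was -0.30, 0.20, -0.09, 0.54, 0.81 and 0.39 in the same order. Single libraries moved these counts. The brain count of lower genes was 0 without E15.5 Ribo-seq replicate 1 and 13 without replicate 2. Leaving out 1 library at a time gave 8 to 22 lower genes in heart, 2 to 30 in kidney (4 without the E15.5 RNA-seq replicate 2 library), 20 to 32 in liver and 3 to 10 higher in lung.

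The shift was seen in the ratio of footprint to mRNA TPM set against the median gene of the same group. The level of such a ratio also depends on how much of a gene's exons is coding, which was not allowed for. At E15.5 the median subunit stood at 2.23 times the median gene in both brain and heart, 2.22 in lung, 2.13 in kidney, 2.11 in liver and 1.71 in retina. At P42 it stood at 1.92 in retina, 1.28 in lung, 1.26 in brain, 1.18 in liver, 1.08 in kidney and 0.980 in heart. Retina was the tissue in which the ratio of subunits was not lower at P42. For the assembly factors the ratio went from 1.49 to 1.26 in brain, from 1.81 to 1.5 in heart, from 1.58 to 1.17 in kidney and from 1.81 to 1.45 in retina, each over 8 factors. In liver it was 1.70 over 7 factors at E15.5 and 1.34 over 8 at P42, and in lung 1.55 over 8 and 1.30 over 6, so the stages there were not compared over the same genes.

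**Figure D4:**
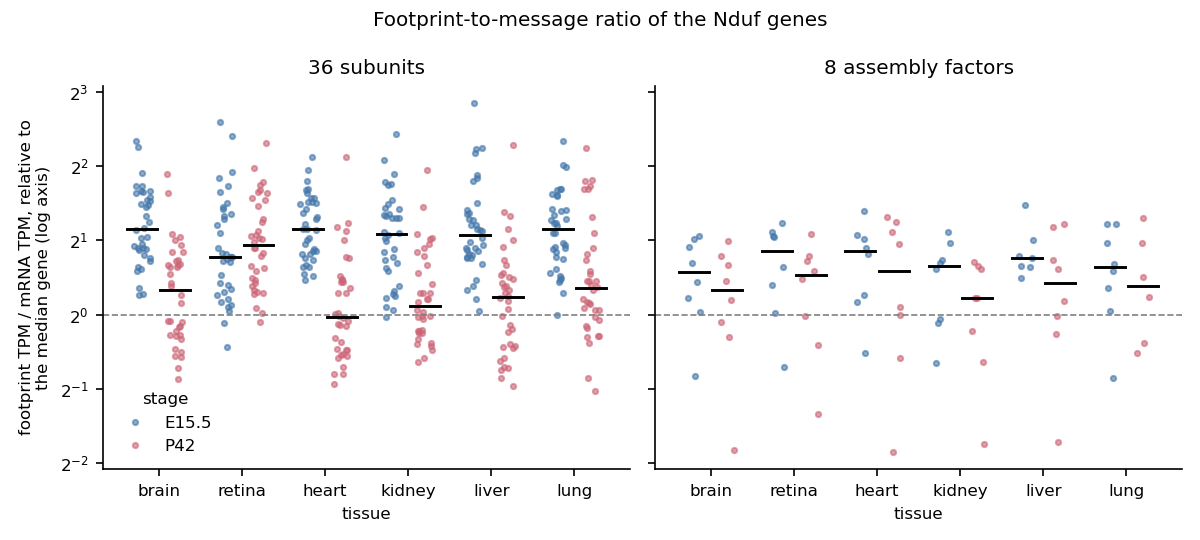
Points show the ratio of footprint to mRNA TPM for each gene divided by the ratio of the median gene of the group, on a log axis, for the subunits (left) and the assembly factors (right), with the class median as a black line and 1 as a dashed line. Subunit medians are 1.71 to 2.23 in all tissues at E15.5 and 0.980 to 1.28 at P42 in all tissues except retina, at 1.92.

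Retina was set against the other tissues in a test of the difference itself. The efficiency change in retina exceeded the mean of the other 5 tissues for 21 of 46 members (45.7%), against 6.93% of all genes tested, and for 22 relative to the median gene, against 7.68%. The 21 comprise 20 subunits and Ndufa4l2, and the largest differences among the subunits were 2.06 for Ndufb7 (SE 0.43, limma adjusted p = 0.000814), 1.93 for Ndufa2 (SE 0.49, limma adjusted p = 0.00464) and 1.92 for Ndufa11 (SE 0.47, limma adjusted p = 0.00338), which were named after their values were seen. Ndufaf2 was lower, against 9.89% of all genes, at -1.67 (SE 0.35, limma adjusted p = 0.000862). The count was 19 to 26 under the scalings tried. Leaving out 1 retina library gave 6 without P42 RNA-seq replicate 1, 10 without E15.5 RNA-seq replicate 1 and 11 without E15.5 Ribo-seq replicate 2. In liver 18 of 45 members (40.0%) had a lower efficiency change than the other tissues, against 27.4%, and 3 relative to the median gene, against 7.24%.

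Single members show how the assays parted. Ndufb10 in liver had footprints of 130.2 and 137 TPM at E15.5 and 111 and 158 TPM at P42, overlapping, while its mRNA rose as given above, and its efficiency change was -2.45 (SE 0.32, limma adjusted p = 6.92e-07). Ndufa13, a membrane arm subunit also known as GRIM-19, had liver mRNA of 52.1 and 55.6 TPM against 266 and 321 TPM and footprints of 70.9 and 85.2 TPM against 58.1 and 101 TPM, a change of -2.43 (SE 0.42, limma adjusted p = 4.99e-05). For both genes the mRNA stages were apart and the footprint stages overlapped.

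Ndufv3, a matrix arm subunit of the NADH-binding module, had heart mRNA of 180.2 and 163 TPM against 252 and 233 TPM. Its heart footprints were 228 and 178 TPM at E15.5 and 85.4 and 79.6 TPM at P42, opposite in direction to the message, and the efficiency change was -1.78 (SE 0.32, limma adjusted p = 0.000429). In kidney its mRNA went from 80.2 and 52.9 to 243 and 184 TPM and its footprints from 72.1 and 72.2 to 80.7 and 63.0 TPM, a change of -1.70 (SE 0.32, limma adjusted p = 0.00111), and of -1.4 without the E15.5 RNA-seq replicate 2 library. Ndufa2, a matrix arm subunit with a thioredoxin-like fold, had heart mRNA of 413 and 364 TPM against 585 and 611 TPM and footprints of 653 and 372 TPM against 236 and 208 TPM, a change of -1.78 (SE 0.44, limma adjusted p = 0.00525). In kidney its change was -1.76 (SE 0.44, limma adjusted p = 0.0124), or -1.35 without that library, and in brain -1.41 (SE 0.44, limma adjusted p = 0.0106), where it was -0.79 and not called without E15.5 Ribo-seq replicate 1. The kidney call was lost without P42 RNA-seq replicate 1, or without Ribo-seq replicate 2 of either stage.

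Among the assembly factors, Ndufaf2 in retina changed by -1.94 (SE 0.32, limma adjusted p = 9.26e-05), with the overlap of exons given above. Ndufaf8 in brain had footprints of 21.1 and 6.43 TPM against 4.84 and 7.43 TPM and changed by -1.67 (SE 0.56, limma adjusted p = 0.0151), a call lost without E15.5 or P42 Ribo-seq replicate 1. Ndufaf4 in brain changed by 1.17 (SE 0.35, limma adjusted p = 0.00762), with mRNA of 35.5 and 34.1 TPM against 19.5 and 21.7 TPM and footprints of 6.24 and 6.72 TPM against 9.83 and 8.50 TPM. That rise was 0.63 and not called relative to the median gene. Ndufaf8 also fell in liver, by -2.37 (SE 0.56, limma adjusted p = 0.00155), and in heart, by -1.64 (SE 0.56, limma adjusted p = 0.0327). In liver Ndufaf4 changed by -1.27 (SE 0.35, limma adjusted p = 0.00642) and Ndufaf6 by -1.08 (SE 0.34, limma adjusted p = 0.0159). Neither Ndufaf4 nor Ndufaf6 was called relative to the median gene in any tissue tested. Ndufs1 in lung had mRNA of 35.0 and 35.2 TPM against 12.7 and 12.1 TPM and footprints of 29.8 and 30.0 TPM against 32.4 and 22.2 TPM, a change of 1.28 (SE 0.32, limma adjusted p = 0.00136) that was 0.47 and not called relative to the median gene. Ndufs4, an accessory matrix arm subunit, changed by 1.16 in lung (SE 0.34, limma adjusted p = 0.00486) and by 0.34 relative to the median gene. Ndufa4l2 in retina changed by 2.06 (SE 0.39, limma adjusted p = 0.00039), its footprints having fallen less than its message.

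Each tissue was then set against the mean of the other 5 at each stage. Heart was above the others at E15.5 for 30 of 46 members (65.2%) by mRNA, against 8.19% of all genes, and for 42 (91.3%) by footprint, against 9.82%, the latter including all 36 subunits. At P42 heart was higher for 26 (56.5%) by mRNA, against 4.47%, and for 24 (52.2%) by footprint, against 9.48%. Relative to the median gene these P42 counts were 43 (against 14.2%) and 36 (against 14.8%), and with the other scalings 43 by mRNA and 35 to 41 by footprint. The median of the subunits in heart was 1.23 by mRNA and 1.73 by footprint at E15.5, and 1.12 and 1.10 at P42. That of the assembly factors at P42 was -0.03 and 0.00. In kidney 0 members were called at E15.5 in either direction by mRNA, against 7.85% higher and 5.39% lower, and by footprint, against 9.75% and 1.75%. At P42 kidney was higher for 15 members (32.6%) by mRNA, against 14.9%, and for 9 (19.6%) by footprint, against 12.8%. The mRNA count was 22 relative to the median gene (against 15.9%), 7 with median-of-ratios scaling, 9 with mitochondrially encoded genes left out and 8 with nuclear genes rescaled to an equal sum. Without P42 replicate 2 the kidney counts were 25 by mRNA and 19 by footprint, and without P42 Ribo-seq replicate 1 the footprint count was 4.

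Ndufs6, a zinc-binding matrix arm subunit, and Ndufc1, a small membrane arm subunit, were the furthest above the other tissues in P42 heart by mRNA. Ndufs6 was 503 and 472 TPM in heart, 1.79 above (SE 0.16, limma adjusted p = 6.02e-10), with 311 and 252 TPM in kidney, the next tissue. Ndufc1 was 196 and 205 TPM, 1.72 above (SE 0.20, limma adjusted p = 3.36e-08), with 191 and 138 TPM in kidney. For both genes the heart libraries lay above the kidney libraries. By footprint Ndufs7 was 260.0 and 247 TPM in P42 heart, 1.83 above (SE 0.24, limma adjusted p = 2.7e-06), and Ndufb8 146 and 139 TPM, 1.76 above (SE 0.23, limma adjusted p = 1.85e-06). In P42 kidney the leaders by mRNA were Ndufaf6, 1.61 above (SE 0.16, limma adjusted p = 4.6e-09), and Ndufb6 with 450 and 347 TPM, 1.48 above (SE 0.18, limma adjusted p = 2.06e-07). By footprint they were Ndufaf6 with 36.8 and 23.3 TPM, 1.36 above (SE 0.21, limma adjusted p = 2.43e-05), and Ndufs8 with 324 and 306 TPM, 1.32 above (SE 0.21, limma adjusted p = 2.88e-05).

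Lung and liver lay at the other end. At P42 lung was lower for 40 of 46 members (87.0%) by mRNA, against 17.3%, and for 27 (58.7%) by footprint, against 10.3%. The footprint count was 17 without P42 replicate 2, 41 with median-of-ratios scaling and 42 with nuclear genes rescaled to an equal sum. The 1 member higher in P42 lung was Ndufa4l2, by 2.90 by mRNA (against 18.7% of all genes) and 2.47 by footprint (against 24.5%). At E15.5 liver was lower for 22 (47.8%) by mRNA, against 38.2%, and for 1 (2.17%) by footprint, against 19.0%. The liver mRNA count was 9 relative to the median gene (against 19.5%) and 5 with median-of-ratios scaling, and the liver footprint count was 0 relative to the median gene (against 12.6%) and 20 with nuclear genes rescaled to an equal sum. Retina at E15.5 was lower for 31 (67.4%) by footprint, against 23.3%, and for 0 by mRNA, against 13.9%. That footprint count was 18 relative to the median gene (against 14.2%), 13 with median-of-ratios scaling and 5 with nuclear genes rescaled to an equal sum.

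Stage changes were also compared between tissues by a test of the difference. The mRNA change in kidney exceeded the mean of the other 5 for 31 members (67.4%), against 16.2% of all genes, and in liver for 15 (32.6%), against 20.1%. Without the E15.5 kidney replicate 2 library the kidney count was 11, and it was 20 with median-of-ratios scaling and 9 with nuclear genes rescaled to an equal sum, by which the liver count was 8. In lung the mRNA change was below the others for 39 (84.8%), against 20.2%, and the footprint change for 19 (41.3%), against 6.10%. These lung counts were 34 (against 12.2%) and 31 (against 10.3%) relative to the median gene, and the footprint count was 40 with nuclear genes rescaled to an equal sum. In retina the footprint change exceeded the others for 14 (30.4%), against 31.9%, and was below them for 1, against 4.87%. In kidney it exceeded them for 4 (8.70%), against 9.75%, and in heart it was below them for 8, against 29.3%. Relative to the median gene 3 were higher in retina (against 13.0%), 18 were higher in kidney (against 13.7%) and 0 were lower in heart. The kidney footprint count was 1 without P42 replicate 1 and 12 without replicate 2, and the lung footprint count 10 without P42 replicate 2. The remaining counts by mRNA, with the percentage of all genes in brackets, were 3 higher and 4 lower in retina (39.2% and 7.33%), 1 higher and 3 lower in heart (2.22% and 39.4%), 1 higher in brain (20.7%) and 1 higher in lung (12.6%). The count of lower members in retina was 22 relative to the median gene, against 18.3%. By footprint 2 members were higher in brain (26.5%) and 1 in lung (20.4%). The efficiency change in lung exceeded the others for 9 of 44 members, against 16.6%.

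Other genes of complex I assembly and the mitochondrially encoded subunits were taken as a comparison. Of 12 further assembly genes listed, 11 were in the tables. By mRNA 10 of 11 fell in lung, against the 53.5% given above, and 3 of 11 fell in heart as deposited, Acad9, Lyrm2 and Tmem186, against 74.6% of all genes and a median gene of -1.61. Ecsit, a membrane arm factor, was the 1 gene of 11 that rose in kidney, against 13.1%, by 1.64 (SE 0.19, limma adjusted p = 8.25e-08). The 11 genes' median change was 0.17 in kidney, 0.30 in liver and -0.82 in heart. All 7 mitochondrially encoded subunit genes rose by mRNA in brain and heart, against 11.7% and 2.73% of all genes. In liver 6 rose, against 13.4%, and 5 rose in kidney and retina, against 13.1% and 18.6%. In lung 4 rose, while mt-Nd4l was lower, with a difference of -1.02 (SE 0.24, limma adjusted p = 0.000508), against 53.5% lower. By footprint 7 rose in brain, kidney and retina, against 20.2%, 12.2% and 21.3% of all genes, and 6 rose in heart, liver and lung. The shares of all genes that rose by footprint in heart, liver and lung, and by mRNA in lung, are not given here. The polyadenylated fraction covers mitochondrial messages unevenly, and these values are given as deposited.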

How the data were processed

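RNA-seq of polyadenylated RNA and Ribo-seq (frozen tissue lysed with cycloheximide, rRNA removed) of 6 tissues at 2 stages, 2 biological replicates each, gave 48 libraries. The authors' deposited values are TPM in 4 tables. Per the submitters' processing notes, the tools were CASAVA 1.8.2, cutadapt 1.8.1, TopHat2 2.0.14 and featureCounts 1.6.2 (Subread), with genome GRCm38.p6. Neither the annotation release nor the strand of counting is given in the sources used here. All columns were mapped to samples (0 were not). TPM keeps no depth, so no counting interval can be given, and each table has 1 sum in which a few abundant or mitochondrial genes lower the value of all others. TPM + 1 was taken to log2 and tested with limma 3.58.1 in R 4.3.3 over all genes, with Benjamini-Hochberg adjustment. Genes needed 1 TPM in at least 2 of 24 libraries and a mean of 1 TPM in the tissue, and for translational efficiency 5 TPM by RNA-seq at each stage. All libraries of an assay entered 1 fit (12 residual degrees of freedom, and 24 for both assays together). Calls required an adjusted p under 0.05 with a log2 change of 1 or more. The test was checked on simulated data. Replicates number 2 in every group, which limits the precision. The p-values use a spread between replicates that is pooled for each gene over all groups of the fit and moderated by limma. They do not measure the spread of the compared groups alone.

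The members, the lists of genes and the tests were chosen with earlier results of these data known. Genes given with values in each library are the 2 members with the largest called rise and fall by mRNA and by translational efficiency in each tissue, the assembly factors, the Ndufa4 pair, the 2 members most above the other tissues in P42 heart and kidney, and members called against the direction of most. The core subunits are given by group means or libraries, and some called changes of the other genes without library values. The values of 1 core subunit and of 1 red cell marker are not reported here. Alternatives were other scalings, pseudocounts of 0.25 and 4, other filters, a fit to the tissue alone, a replicate block and each library left out. Promoter sequences are from RefSeq and coding sequences from GENCODE M21 (both GRCm38.p6).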

Additional observations from a re-analysis of the deposited data

Results flagged for a closer look

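Members whose change from E15.5 to P42 differed from the mean change of the other 5 tissues, by a limma test of that difference, are listed here with their counts. The counts in different tissues share libraries, since each tissue is among the other 5 for the rest.

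By mRNA the change was higher for 31 members in kidney, 15 in liver, 3 in retina and 1 each in brain, heart and lung. It was lower for 39 in lung, 4 in retina and 3 in heart. By footprint it was higher for 14 members in retina, 4 in kidney, 2 in brain and 1 in lung, and lower for 19 in lung, 8 in heart and 1 in retina. By translational efficiency it was higher for 21 members in retina and 9 in lung, and lower for 18 in liver and 1 in retina. The percentages of all genes called were 39.2% higher in retina and 39.4% lower in heart by mRNA, 31.9% higher in retina and 29.3% lower in heart by footprint, and 16.6% higher in lung by translational efficiency. The lung count by translational efficiency was 0 relative to the median gene.

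Among single members, Ndufa4l2 differed in retina by -4.74 by mRNA, -2.41 by footprint and 2.34 by translational efficiency. Ndufaf2 differed in retina by 2.34 by mRNA, a value that shares the exon overlap with a gene on the opposite strand. Ndufaf4 differed in liver by 2.75 by mRNA. In lung, Ndufa4 differed by -2.53, Ndufaf6 by -2.20, Ndufaf5 by -2.15 and Ndufaf8 by -2.00 by mRNA.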

How the results depend on the processing

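Counts of called members moved with the scaling and with single libraries left out. Shares of all genes called are not given for settings other than the deposited and median-gene values, nor for every median-gene count. Counts without a share describe members only. Relative to the median gene, the counts higher at P42 by mRNA were 32 in brain, 5 in retina, 39 in heart and 38 in liver, and 0 were lower in lung. Heart against the other tissues at P42 gave 43, and liver at E15.5 gave 9 lower. By footprint it gave 0 lower in heart, 31 higher in kidney, 9 lower in lung, 18 lower in E15.5 retina, 0 lower in E15.5 liver, and, for the change against other tissues, 18 in kidney and 31 in lung. By translational efficiency 16 were lower in brain and 0 higher in lung.

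With median-of-ratios scaling the mRNA counts were 36 in brain, 6 in retina, 43 in heart, 42 in liver and 0 lower in lung, with 43 for P42 heart, 7 for P42 kidney, 5 for E15.5 liver and 20 for the kidney change against other tissues. The footprint counts were 0 in heart, 38 in kidney, 4 in lung, 13 in E15.5 retina, 39 in P42 heart, 0 in E15.5 liver and 41 in P42 lung, with 20 and 32 for the changes of kidney and lung against other tissues. Translational efficiency gave 17 in brain, 36 in heart and 0 in lung. With mitochondrially encoded genes left out, mRNA gave 16 in brain, 36 in heart, 43 in P42 heart and 9 in P42 kidney, footprints 2 in heart and 8 in kidney, and translational efficiency 37 in heart and 19 in kidney. With nuclear genes rescaled to an equal sum, an alternative chosen after seeing the data, mRNA gave 12 in brain, 29 in heart, 43 in P42 heart, 8 in P42 kidney and 9 for the kidney change against other tissues. Footprints gave 0 in heart, 32 in lung, 5 in E15.5 retina, 41 in P42 heart, 20 in E15.5 liver and 42 in P42 lung, with 2 and 40 for the changes of kidney and lung against other tissues, and translational efficiency gave 7 in kidney, 16 in liver and 0 in lung.

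A pseudocount of 0.25 gave 2 lower footprints in liver. A pseudocount of 4 gave 0 in E15.5 liver and 10 in lung by footprint, and 3 in lung by translational efficiency. Fitted to the tissue alone, translational efficiency gave 1 lower in brain and 3 in kidney. With the stricter filter it gave 0 higher in retina and 1 in lung. The cause of these differences was not tested.

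Among the named differences that were called as deposited, those that changed sign with the scaling were those of Ndufaf7 in heart by mRNA (0.32 relative to the median gene, 0.64 with median-of-ratios), Ndufaf4 in heart by mRNA (0.46 and 0.82), Ndufa4 in lung by mRNA (0.030 and 0.23) and Ndufaf8 in lung by mRNA (0.013 with median-of-ratios). Those by footprint in heart were Ndufaf5 (0.0071, 0.25 and, with equal sums, 0.048) and Ndufaf4 (0.20 with median-of-ratios). Differences below the size for a call that changed sign relative to the median gene include Ndufs1 in heart and liver (0.81 and 0.12) and Ndufv1 in liver (0.31) by mRNA.

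Leaving out 1 library at a time gave these ranges by mRNA: 5 to 7 in brain, 2 to 4 in retina, 2 to 6 in heart, 23 to 41 in kidney, 21 to 26 in liver and 21 to 29 in lung. The counts against other tissues ran from 27 to 31 in E15.5 heart, 26 to 27 in P42 heart, 10 to 25 in P42 kidney, 22 to 24 in E15.5 liver, 40 to 42 in P42 lung and 0 to 0 in E15.5 retina, and for the changes from 11 to 41 in kidney and 37 to 41 in lung. By footprint the ranges were 2 to 8 in brain, 7 to 15 in retina, 4 to 14 in heart, 3 to 13 in kidney, 1 to 5 in liver and 9 to 22 in lung. Against other tissues they were 27 to 33 in E15.5 retina, 37 to 42 in E15.5 heart, 22 to 24 in P42 heart, 4 to 19 in P42 kidney, 0 to 1 in E15.5 liver, 17 to 28 in P42 lung, and 1 to 12 and 10 to 26 for the changes in kidney and lung. By translational efficiency they were 0 to 13 in brain, 1 to 6 in retina, 8 to 22 in heart, 2 to 30 in kidney, 20 to 32 in liver, 3 to 10 in lung and 6 to 26 for retina against other tissues.

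Whether replicate numbers pair the samples was left undecided. Over 12 pairs the correlation of deviations ran from -0.364 in E15.5 retina to 0.477 in E15.5 heart and exceeded 0.1 in 5. The main fits assumed no pairing. A replicate block moved the kidney count by translational efficiency from 12 to 15, and a block by library pair, added after seeing the data, to 16, with heart going from 18 to 19. It moved no other stage count of called members.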
